A study of Mus musculus with 2 samples.

Results

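The excitability of a muscle fibre is set at its surface membrane, the sarcolemma, by ion channels and by the sodium pump, and 6 genes of this machinery were read as long RNA molecules in mouse gastrocnemius, a calf muscle. They are the channel genes Clcn1, Scn4a and Kcnj11 and the pump genes Atp1b1, Atp1b2 and Fxyd1. Every transcript model that the deposited tables assign to one of these gene names was taken, which gave 76 of the 49389 models in annotated mouse genes in replicate 1 and 120 of 71056 in replicate 2. All 6 genes, of 12293 and 14383 genes with reads, were found in both libraries. The libraries come from B6CASTF1/J females, first-generation hybrids of C57BL/6J and CAST/EiJ, aged 36 days, and no treatment is named. The labels number the females 03 and 04 but place both under a single donor entry, and they name 2 µg of starting RNA for each library. There is thus 1 group with 2 samples and no condition to compare: every comparison below sets replicate 1 against replicate 2, and its p-value speaks of these 2 libraries only.

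An action potential in a muscle fibre is carried by the voltage-gated sodium channel whose pore is encoded by Scn4a. The chloride channel encoded by Clcn1 carries most of the resting conductance of the fibre and keeps it from firing repeatedly; loss of it causes myotonia. Kcnj11 encodes the pore of the ATP-sensitive potassium channel, which opens when the energy supply of the fibre falls. The sodium pump restores the ion gradients after activity. It is built from a catalytic alpha subunit and a beta subunit, here Atp1b1 or Atp1b2, which the alpha subunit needs to reach the membrane, and its affinity for sodium is tuned by Fxyd1, phospholemman, a small membrane protein that is phosphorylated on its cytoplasmic tail.

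Annotated mouse genes took 797105 reads in replicate 1 and 1602272 in replicate 2, so 1 read is worth 1.25 and 0.624 CPM (reads scaled to the library total). The 5 skeletal muscle markers together stood at 181642 and 138105 CPM. The libraries stood apart in fibre type: 8 of 8 slow-fibre markers were lower in replicate 1, with a sum of 28.9 CPM against 9415 CPM in replicate 2, and Myh7, Myl2, Myl3 and Myoz2 had no read in replicate 1. Adipocyte markers summed to 458 and 76.8 CPM and blood markers to 2555 and 554 CPM. A gene was called different when Fisher's exact test (two-sided, Benjamini-Hochberg adjustment over 8096 genes) gave an adjusted p under 0.05 and the levels differed at least 2-fold. In bulk tissue, fewer cells of a type and less RNA per cell cannot be told apart.

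The 6 genes covered a wide range of levels. In replicate 1 the order of levels was Fxyd1 at 1774 CPM, Atp1b2 at 386, Kcnj11 at 117, Scn4a at 60.2, Clcn1 at 26.3 and Atp1b1 at 3.76 CPM. In replicate 2 it was Fxyd1 at 4246 CPM, Kcnj11 at 227, Atp1b2 at 164, Atp1b1 at 73.0, Scn4a at 43.1 and Clcn1 at 16.2 CPM. Fxyd1 led in both libraries, while Atp1b2 and Kcnj11 changed places and Atp1b1 moved past both channels. Scn4a stood above Clcn1 in both libraries when all reads were counted. In reads with a complete coding sequence it did not: Scn4a had 9 and Clcn1 9 in replicate 1, and Scn4a 1 and Clcn1 6 in replicate 2. From known models alone the mean levels were 0.942 CPM for Scn4a and 11.7 CPM for Clcn1, and without ISM and Genomic models (parts of transcripts and blocks that fit no annotated splicing) 7.90 and 13.7 CPM. A long read covers a stretch of a single copy, so these levels are not divided by length. Long transcripts are however read less often, so the order is one of reads and not of molecules in the fibre. By their means over the libraries, Atp1b2 and Kcnj11, Scn4a and Atp1b1, and Atp1b1 and Clcn1 lie within their SDs of each other. By the rule above, 1 of the 6 genes was higher in replicate 1 (Atp1b2) and 2 were lower (Atp1b1 and Fxyd1). Over all genes tested, 11.3% were called, 5.47% as higher and 5.78% as lower. That split, 443 and 468 genes, was 567 and 348 with Atp2a1 left out of the total and 587 and 255 from known models only. The median log2 ratio of replicate 1 over replicate 2 was -0.24 for the 6 genes and -0.06 for all genes tested.

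**Figure D1:**
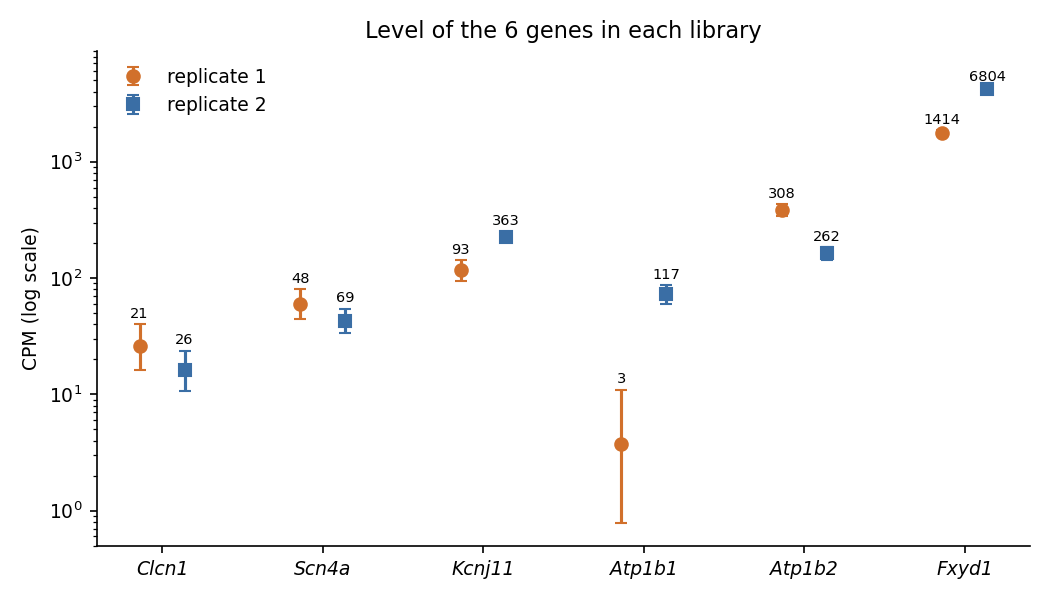
Level of each gene in CPM (log axis) in replicate 1 (circles) and replicate 2 (squares); bars are exact Poisson 95% intervals, which cover counting error only, and the numbers above them are reads. Atp1b1 shows the widest gap, 3.76 CPM in replicate 1 and 73.0 CPM in replicate 2, and the intervals of Clcn1 and of Scn4a overlap between the libraries.

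Clcn1 (ENSMUSG00000029862.15, chr6:42286685-42315756, plus strand, mm10) had 21 reads in replicate 1 and 26 in replicate 2, which is 26.3 and 16.2 CPM, on average 21.3 ± 7.15 CPM (SD, n = 2). The ratio of replicate 1 over replicate 2 was 1.62, with a counting interval of 0.869 to 3.00, and Fisher's exact test did not call it (adjusted p = 0.303). These few reads still covered the whole gene. The 23-exon transcript Clcn1-201, which encodes the full channel, had 9 reads in replicate 1 and 6 in replicate 2. Exon 1 was held by models with 13 of 21 reads (61.9%) in replicate 1 and 11 of 26 (42.3%) in replicate 2. Another 7 of 21 reads (33.3%) in replicate 1 and 13 of 26 in replicate 2 lay as single blocks at the 3′ end.

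The splicing of Clcn1 is known for an alternative exon, exon 7a, whose inclusion shifts the reading frame; it is low in healthy adult muscle and raised in myotonic dystrophy. The annotation places this exon of 79 nt at chr6:42293444-42293522, between exons 6 and 7 of Clcn1-201, in the transcripts Clcn1-207 and Clcn1-208. Its sequence is shown because it is the exon that the reads were searched for, and the start of the next exon because there the shifted frame meets a stop codon, in capitals. Both come from the GENCODE M21 transcript Clcn1-207, plus strand of mm10, the second at chr6:42294078-42294097.
Clcn1 exon 7a: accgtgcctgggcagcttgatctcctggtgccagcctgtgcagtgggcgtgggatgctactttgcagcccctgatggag
Clcn1 next exon up to the stop: cagccatactattacacTGA
None of 13 reads across this place in replicate 1 and none of 11 in replicate 2 held exon 7a. At 0 of 24 reads, a share of up to 12.5% is still allowed (3 counts), so a low inclusion would not have been detectable at this depth. Single reads left out other exons of Clcn1-201, namely exons 12, 13 and 21 in replicate 1 and exons 2, 12 and 21 in replicate 2. The model without exon 13 was no plain skip: it had 20 exons and 5508 nt, against 23 exons and 3545 nt of Clcn1-201, so it also held intron sequence. The skips of exons 12 and 21 were each seen in both libraries, with 1 read a library. One read in replicate 2 belonged to Clcn1-206, an annotated target of nonsense-mediated decay.

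The 3′ end of Clcn1 was read in a long form. Models ending 1100 nt beyond Clcn1-201, at the annotated end of the gene, held 9 of 21 reads (42.9%, exact 95% interval 21.8 to 66.0) in replicate 1 and 14 of 26 reads (53.8%, 33.4 to 73.4) in replicate 2. Among reads with more than 1 exon, 2 of 14 and 1 of 13 were in models with the long end. Of all multi-exon reads, 9 in replicate 1 and 6 in replicate 2 were assigned to Clcn1-201. A known model carries its annotated end, so these reads could not count as long. How many spliced reads had the long end is therefore not given by these counts. By model, most reads of the long end were single blocks. In replicate 1 all 7 were assigned to a model that starts at the border of the last exon, at 42313807. It was classed as incomplete splice match (ISM, part of an annotated transcript). In replicate 2, 9 were assigned to a model starting at 42313957 and 4 to another starting at 42315313, both classed as Genomic. These are the starts of models, and where each read began is not recorded. Each class alone passed the test (adjusted p = 0.0120 for ISM and 0.00122 for Genomic blocks, Fisher's exact test), as did 19.4% of the 6489 transcript shares tested. The classes together held 7 of 21 and 13 of 26 reads, with intervals of 14.6 to 57.0% and 29.9 to 70.1% that overlap.

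Scn4a (ENSMUSG00000001027.7, chr11:106318592-106353288, minus strand) had 48 reads in replicate 1 and 69 in replicate 2, which is 60.2 and 43.1 CPM, on average 51.6 ± 12.1 CPM (SD, n = 2). The ratio was 1.40 with an interval of 0.947 to 2.05, not called (adjusted p = 0.226, Fisher's exact test). It was called higher in replicate 1 without ISM and Genomic models (log2 ratio 2.44, adjusted p = 0.0466) and from complete reads, 9 and 1, a count added after the data were seen (17.8-fold, 2.47 to 782, adjusted p = 0.00273, both by Fisher's exact test). From complete reads, 15.3% of 5579 genes were called. Single blocks in the last exon or beyond it held most of these reads, 35 of 48 reads (72.9%) in replicate 1 and 60 of 69 (87.0%) in replicate 2. Beyond the annotated 3′ end, replicate 2 also had 40 reads on the same strand in a locus of its own, which lies within the extended 3′ end of the long Scn4a models described next. Counted with it, Scn4a had 48 and 109 reads, or 60.2 and 68.0 CPM, and the ratio turned to 0.885 (0.617 to 1.25), which was still no call.

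The complete sodium channel message was read mainly from a start outside the annotated gene. A model of 25 exons, 8228 nt long in replicate 1 and 8229 nt in replicate 2, had 8 reads in replicate 1 and 1 in replicate 2, against 1 read and 0 reads of the annotated Scn4a-201. Its first exon of 176 nt lies at chr11:106365475-106365650 and is joined by an intron of 15683 nt to a second exon of 675 nt that extends the first exon of Scn4a-201 upstream. All its other introns are those of Scn4a-201, and its 3′ end lies 1052 nt (replicate 1) and 1053 nt (replicate 2) beyond the annotated one. The RefSeq gene, chr11:106317545-106365559, already reaches into this first exon. The far edge of the first exon, 106365650, is also the edge of the first exon of Prr29 on the opposite strand, which covers the same 176 nt, so the true 5′ end of these reads is not given by the model.

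Scn4a models with the whole coding sequence held 9 of 48 reads (18.8%) in replicate 1 and 1 of 69 (1.45%) in replicate 2. The share was called higher in replicate 1 (adjusted p = 0.0137, Fisher's exact test), as was the share of the 25-exon model itself, at 16.7% and 1.45% (adjusted p = 0.0193). Over all 3084 genes with enough reads, 13.3% were called for the share of complete reads, 13.1% as higher in replicate 1, and 19.4% of the 6489 transcript shares tested were called. A higher share of complete reads in replicate 1 was therefore the general direction of the called genes. Over all reads in annotated mouse genes the share was close, 68.4% in replicate 1 and 67.5% in replicate 2. For Scn4a, reads per exon went the way of its complete share. In replicate 1 exon 1 of Scn4a-201 was held by 9 reads and exon 23 by 13, and in replicate 2 exon 1 by 1 read and exon 23 by 7.

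**Figure D2:**
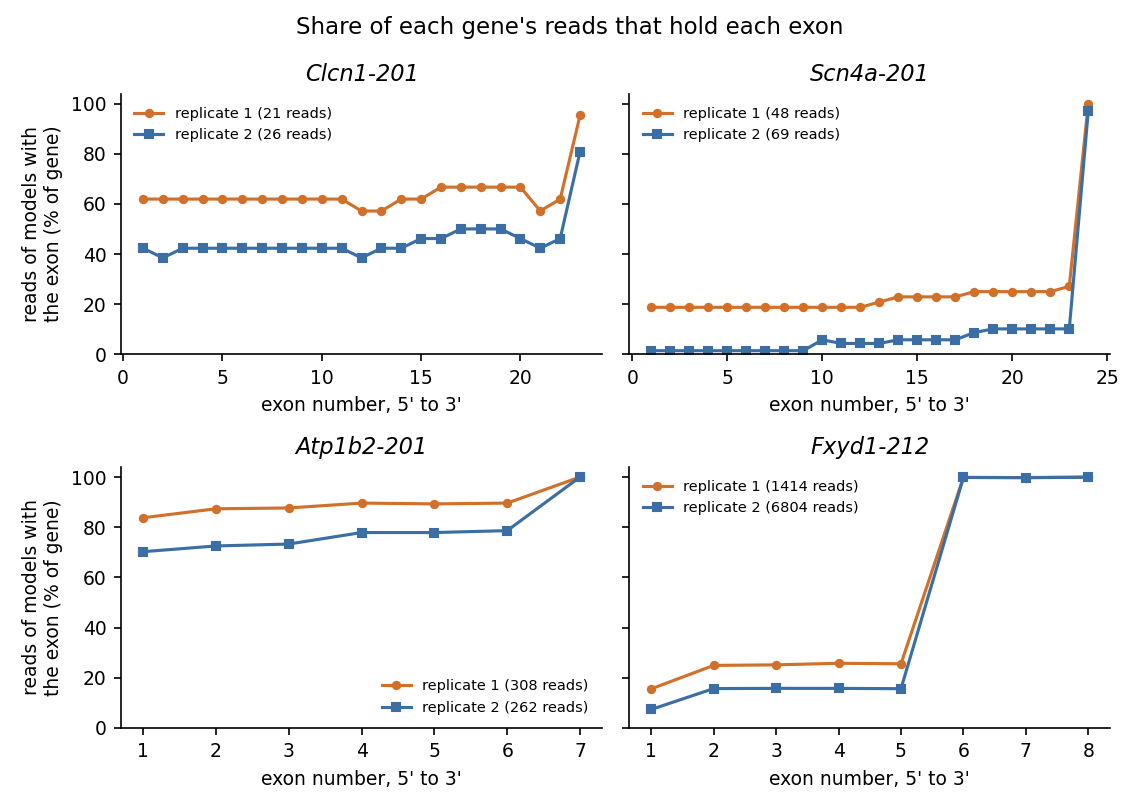
Share of a gene's reads (%) whose model holds each exon of the main coding transcript, numbered 5′ to 3′, in replicate 1 (circles) and replicate 2 (squares). Scn4a and Fxyd1 show a large step near the 3′ end: in Scn4a the last exon is held by 100% and 97.1% of reads and exon 23 by 27.1% and 10.1%. Clcn1 also rises at its last exon, from 61.9% to 95.2% in replicate 1 and from 46.2% to 80.8% in replicate 2. In Atp1b2 the rise is smaller, from 89.6% to 100% and from 78.6% to 100%.

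Kcnj11 (ENSMUSG00000096146.2, chr7:46093953-46100764, minus strand) had 93 reads in replicate 1 and 363 in replicate 2, which is 117 and 227 CPM, on average 172 ± 77.7 CPM (SD, n = 2). It was 1.94-fold lower in replicate 1, with an interval of 1.54 to 2.47. Its adjusted p was 3.85e-08 by Fisher's exact test, but the difference stayed under the 2-fold limit and was not called. Reads of the gene with a complete coding sequence were 2.05-fold lower (1.62 to 2.63) and passed the limit (adjusted p = 4.38e-09, Fisher's exact test). The single-exon transcript Kcnj11-205, of 3142 nt, held 87 of 93 reads (93.5%) in replicate 1 and 354 of 363 (97.5%) in replicate 2. With no intron to match, a read that covers a part of this exon counts for the whole transcript. Neither these shares nor the count of complete reads is therefore proof of full length.

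Of the pump genes, Atp1b1 (ENSMUSG00000026576.12, chr1:164437109-164458355, minus strand) differed most between the libraries. It had 3 reads in replicate 1 and 117 in replicate 2, which is 3.76 and 73.0 CPM, on average 38.4 ± 49.0 CPM (SD, n = 2). This beta subunit, the one common to most tissues, was 19.4-fold lower in replicate 1, with an interval of 6.48 to 95.4 (adjusted p = 1.36e-15, Fisher's exact test). All 3 reads of replicate 1 were the 6-exon transcript Atp1b1-201. In replicate 2 this transcript held 46 of 117 reads (39.3%), and 58 reads (49.6%) were single blocks at the 3′ end. From complete reads only, 3 and 46, the gene was 7.73-fold lower in replicate 1 (2.49 to 38.9, adjusted p = 1.25e-04, Fisher's exact test). The slow-fibre markers moved in the same direction, 28.9 CPM in replicate 1 and 9415 CPM in replicate 2, and their part in the level of Atp1b1 was not tested.

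Atp1b2 (ENSMUSG00000041329.13, chr11:69599736-69605942, minus strand), the beta subunit prominent in fast muscle and in glia, went the other way. It had 308 reads in replicate 1 and 262 in replicate 2, which is 386 and 164 CPM, on average 275 ± 158 CPM (SD, n = 2). It was 2.36-fold higher in replicate 1 (2.00 to 2.80, adjusted p = 1.09e-22, Fisher's exact test), and 2.78-fold higher from complete reads. Of the 8 fast-fibre markers, 2 were higher in replicate 1 (Actn3 at 9923 and 3491 CPM, Atp2a1 at 110003 and 30171 CPM) and 2 were lower (Myh1 at 80.3 and 758 CPM, and Myh2 at 0 and 346 CPM), with a median log2 ratio of -0.02 and a sum of 190650 and 103766 CPM. Of the tested adipocyte and blood markers, 3 of 3 and 4 of 5 were higher, and the part of these markers in the level of Atp1b2 was not tested. The 7-exon transcript Atp1b2-201 held 252 of 308 reads (81.8%) in replicate 1 and 180 of 262 (68.7%) in replicate 2 (adjusted p = 0.00327). Single blocks at the 3′ end held 10.4% and 21.4% (adjusted p = 0.00357, both by Fisher's exact test). Both differences passed the limit of 10 percentage points, as did 19.4% of transcript shares over all genes. Without ISM and Genomic models the difference of Atp1b2-201 turned to -1.06 points and was no longer called (adjusted p = 1.00, Fisher's exact test). The exons between were joined alike: 5 internal exons were included in every informative read, 260 to 274 in replicate 1 and 184 to 201 in replicate 2, and an extra exon of 85 nt was found in 1 of 258 and 0 of 184 reads.

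The beta subunits therefore stood in different proportions. Of the reads of Atp1b1, Atp1b2, Atp1b3 and Atp1b4 together, 326 in replicate 1 and 448 in replicate 2, Atp1b2 held 94.5% (exact 95% interval 91.4 to 96.7) in replicate 1 and 58.5% (53.8 to 63.1) in replicate 2. Atp1b1 held 0.920% (0.190 to 2.67) and 26.1% (22.1 to 30.4), and Atp1b3 4.29% (2.37 to 7.10) and 14.5% (11.4 to 18.1). These shares rest on the same reads as the gene levels, and a rise of one lowers the others. They were not set against the shares within other gene families.

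**Figure D3:**
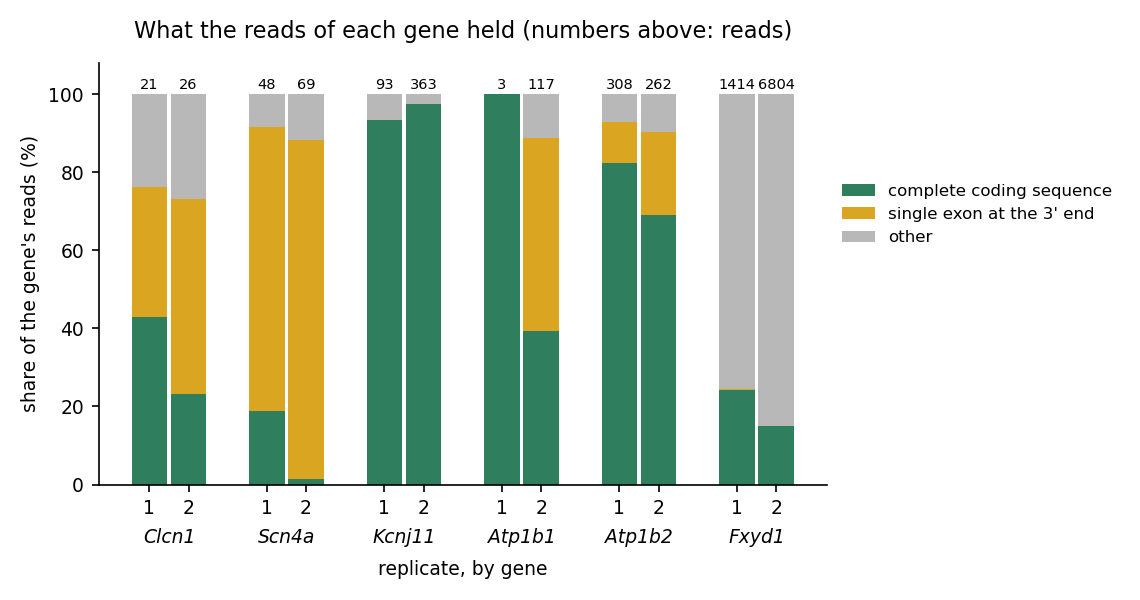
Share of each gene's reads (%) in models with a complete coding sequence, in single blocks at the 3′ end and in other models, with replicate 1 left of replicate 2; numbers above the bars are reads. Complete reads make up 93.5% and 97.5% for Kcnj11, 82.5% and 69.1% for Atp1b2, and 18.8% and 1.45% for Scn4a.

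Fxyd1 (ENSMUSG00000036570.14, chr7:31051678-31057199, minus strand) had the most reads, 1414 in replicate 1 and 6804 in replicate 2, which is 1774 and 4246 CPM, on average 3010 ± 1748 CPM (SD, n = 2). It was 2.39-fold lower in replicate 1 (2.26 to 2.54, adjusted p = 1.50e-231, Fisher's exact test). Most of these reads did not hold a complete coding sequence. Fxyd1-213, an annotated model of 3 exons and 255 nt with the type retained intron, held 891 reads (63.0%) in replicate 1 and 4886 (71.8%) in replicate 2. Its 2 introns are the last 2 of the 7 introns of Fxyd1-212, and its first exon begins 16 nt inside the intron before. It holds 70 of the 276 coding bases (25.4%). A further 125 reads (8.84%) and 664 reads (9.76%) belonged to another 3-exon part of the same end, classed as ISM. The full-length Fxyd1-212 held 166 reads (11.7%) in replicate 1 and 352 (5.17%) in replicate 2. By Fisher's exact test both differences had small adjusted p-values, 2.30e-09 for Fxyd1-213 and 6.54e-16 for Fxyd1-212, but at -8.80 and 6.57 points they stayed under the limit of 10 points. The coding sequence of Fxyd1 with its stop codon is given to show what these reads hold: the part in Fxyd1-213 is in capitals and encodes the end of the cytoplasmic tail, where phospholemman is phosphorylated. It was taken from the GENCODE M21 transcript Fxyd1-212, minus strand of mm10, chr7:31051965-31054366 with introns left out.
Fxyd1 coding sequence: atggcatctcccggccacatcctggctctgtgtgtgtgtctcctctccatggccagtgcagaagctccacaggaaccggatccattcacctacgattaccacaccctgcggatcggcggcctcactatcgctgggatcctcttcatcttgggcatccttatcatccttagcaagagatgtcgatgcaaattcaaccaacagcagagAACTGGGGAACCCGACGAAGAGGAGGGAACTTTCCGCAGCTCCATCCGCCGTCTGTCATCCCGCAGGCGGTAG
The start codon and the membrane-spanning part, in lower case, were held by far fewer reads. A model assigned to Fxyd1-213 carries the ends of the annotation, so where each of these reads began is not recorded.

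Reads with a complete Fxyd1 coding sequence numbered 343 of 1414 (24.3%) in replicate 1 and 1012 of 6804 (14.9%) in replicate 2. From these alone, also a count added after the data were seen, the gene was 1.49-fold lower in replicate 1 (1.32 to 1.69, adjusted p = 1.30e-09, Fisher's exact test), which is below the 2-fold limit: the gene was called from all reads and not from complete ones. Exon 5 of Fxyd1-212 was held by 25.5% of reads in replicate 1 and 15.6% in replicate 2, and exon 6 by 99.9% and 99.8%, so the step lay at the same exon in both libraries.

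Complete Fxyd1 reads began in several first exons. The distal one, used by Fxyd1-212, held 213 of 343 reads (62.1%, exact 95% interval 56.7 to 67.3) in replicate 1 and 476 of 1012 (47.0%, 43.9 to 50.2) in replicate 2. The proximal one, used by Fxyd1-203, held 107 (31.2%, 26.3 to 36.4) and 452 (44.7%, 41.6 to 47.8). The distal share was 15.1 points higher in replicate 1 and the proximal share 13.5 points lower, with adjusted p = 1.69e-04 and 0.00113 by Fisher's exact test. This test was added after the data were seen. Over 1182 first exons, 2.03% were called. The distal and the proximal first exon lie before the start codon. The remaining first exons each held 3.66% of complete reads or less.

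**Figure D4:**
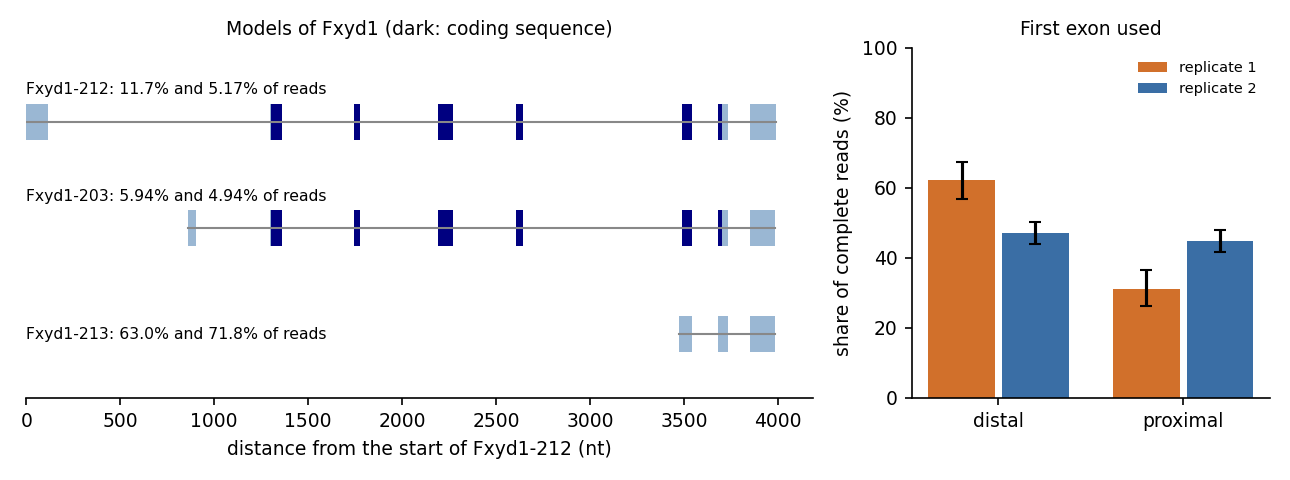
Left, exons of Fxyd1-212, Fxyd1-203 and Fxyd1-213 by distance in nt from the start of Fxyd1-212, with coding bases dark; for Fxyd1-213 the share was 63.0% (replicate 1) and 71.8% (replicate 2). Right, share (%) of complete reads that start in the distal and in the proximal first exon, with exact 95% intervals: 62.1% and 47.0% distal, 31.2% and 44.7% proximal.

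Downstream of the first exons, the splicing of Fxyd1 hardly differed between the libraries. An acceptor 35 nt further into the last exon, outside the coding sequence, was used by 159 of 1365 reads (11.6%) in replicate 1 and 780 of 6607 (11.8%) in replicate 2. The last intron was kept in 39 of 1404 reads (2.78%) and 166 of 6773 (2.45%). A second exon of 129 nt in place of 65 nt was found in 30 of 335 complete reads (8.96%) and 110 of 970 (11.3%). Where this longer exon could be included or skipped, 31 of 32 reads and 113 of 117 reads held it (96.9% and 96.6%). The exons of 33, 75, 37, 50 and 55 nt were included in at least 98.7% of informative reads in either library. No exon of Fxyd1 or Atp1b2 that could be tested was called, where 0.371% of 3235 exons were called over all genes.

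Genes related to the 6, in lists chosen with earlier results of these data known, are set against the 11.3% of all genes that were called. Of 5 other pump genes tested, 0 were higher and 2 lower in replicate 1, with a median log2 ratio of -0.80. Those were Atp1b3, another beta subunit, at 17.6 and 40.6 CPM (2.31-fold lower, 1.28 to 4.46, adjusted p = 0.0172) and Fxyd6, a relative of phospholemman, at 12.5 and 57.4 CPM (4.58-fold lower, 2.38 to 9.86, adjusted p = 1.17e-06, both by Fisher's exact test).

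Of the other sodium channel genes, 2 could be tested and neither was called. Scn4b, a beta subunit of sodium channels, had 22.6 and 38.1 CPM.

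Of 12 other potassium channel genes tested, 1 was higher and 1 lower in replicate 1 (median log2 ratio 0.08). Kcnj12, an inward rectifier, had 55.2 and 21.2 CPM (2.60-fold higher, 1.63 to 4.20, adjusted p = 3.62e-04, Fisher's exact test). Kcnc4 had 84.1 and 49.9 CPM and Kcna7 21.3 and 33.7 CPM, without a call. Abcc9, a regulatory subunit that forms ATP-sensitive channels with the pore, had 23 reads in either library, 28.9 and 14.4 CPM. At 2.01-fold higher in replicate 1 (1.08 to 3.75) Abcc9 was not called (adjusted p = 0.0806, Fisher's exact test).

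Of 8 other chloride channel and transport genes, 1 was higher in replicate 1, where 5.47% of all genes were, and 0 were lower (median log2 ratio 0.71). It was Ano6, a calcium-activated scramblase and channel, at 22.6 and 8.11 CPM (2.78-fold higher, 1.29 to 6.18, adjusted p = 0.0347, Fisher's exact test). Clcn4, an endosomal relative of Clcn1, had 43.9 and 27.5 CPM and was not called, nor were Ano10 (30.1 and 16.9 CPM) and Clcc1 (18.8 and 20.0 CPM). Genes of like pattern were not ranked for any of the 6, since 2 libraries give a single ratio per gene.

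**Figure D5:**
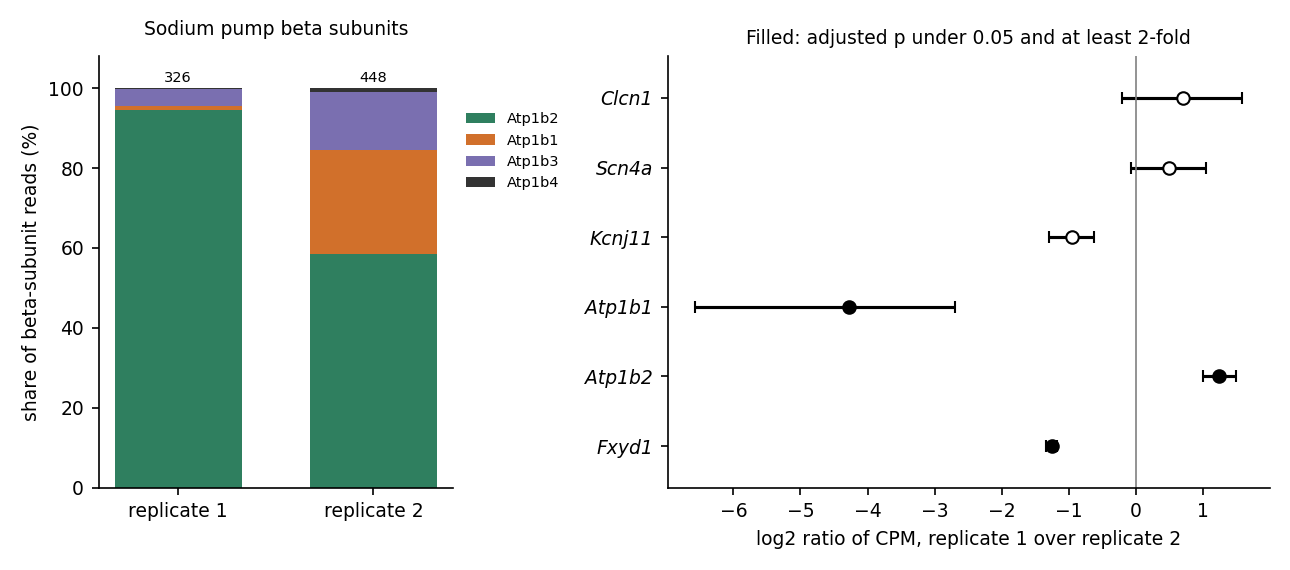
Left, share (%) of beta-subunit reads per gene in replicate 1 and replicate 2, with the number of reads above. Right, log2 ratio of CPM, replicate 1 over replicate 2, for the 6 genes with 95% counting intervals, with called genes filled: Atp1b1 lies at -4.28, Fxyd1 at -1.26 and Atp1b2 at 1.24.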

How the data were processed

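Per the labels, total RNA of gastrocnemius was made into 2 long-read libraries with added Lexogen and Ambion mix 1 spike-ins. For each library the authors deposited a count of reads for every transcript model, in whole numbers, with the annotation of the models, made from filtered alignments to mm10 with GENCODE M21, per the README beside the files. Aligner, filters, tool versions and the use of strand: not given in the sources used here. Deposited counts are raw, with 1 table per library. Known models carry annotated ends, not the ends of reads.

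From the counts, reads were summed per gene and scaled to CPM on the reads in annotated mouse genes, without spike-ins, antisense and intergenic loci. A count of 0 allows up to 3.76 CPM in replicate 1 and 1.87 CPM in replicate 2 (3 counts). Genes with at least 10 reads summed, and shares with at least 20 reads in each library, were compared by Fisher's exact test (two-sided) with Benjamini-Hochberg adjustment over the whole table. Calls needed an adjusted p under 0.05 and a 2-fold difference, or 10 percentage points for shares. Nothing in the labels beyond the female numbers says that the samples are separate animals, so the spread may in part be technical. Intervals are exact at 95% and speak of counting error alone: no molecular identifiers separate copies of 1 molecule. Models were matched between libraries by transcript or intron chain; unannotated models of 1 exon were pooled per gene and class. A complete read is one whose model holds the coding sequence of an annotated transcript of its gene.

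The 6 genes and the related lists were chosen with earlier results of these data known. All 6 genes are described; of the lists, called genes and up to 4 with the highest mean CPM are named, and Abcc9 was chosen after its values were seen. Some listed genes are not reported here. TMM factors of edgeR 4.0.16 and size factors of DESeq2 1.42.0 (R 4.3.3) were tried as other scalings of the fold. Python 3.11.15, numpy 2.4.6, scipy 1.17.1, pandas 2.3.3 and matplotlib 3.10.9 were used.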

Additional observations from a re-analysis of the deposited data

Results flagged for a closer look

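Reads outside the gene counts were found at 3 of the 6 genes, above the 3 counts that a count of 0 allows. Antisense loci across Clcn1 had 4 reads in replicate 1 and 13 in replicate 2. A same-strand intergenic locus beyond the 3′ end of Scn4a had 40 reads in replicate 2 and none in replicate 1. A same-strand intergenic locus at the 5′ side of Atp1b2 had 7 reads in replicate 2, against 2 in replicate 1. None of these reads enters the levels of the genes unless stated, and without a statement on strand, antisense reads cannot be told apart from reads of the gene.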

How the results depend on the processing

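The calls of Atp1b1, Atp1b2 and Fxyd1 kept their direction under TMM factors, DESeq2 size factors, a total without Atp2a1, no minimum, known models only and models other than incomplete splice match and Genomic. Scaling moved the median log2 ratio of all genes between -0.06 and 0.07. Without incomplete splice match and Genomic models, Scn4a (2.44 on the log2 scale) and Kcnj11 (-1.13) were called. With adjusted p alone, 1646 genes were called, Kcnj11 (-0.96) among them. From complete reads, an alternative added after the data were seen, Scn4a (4.16) and Kcnj11 (-1.04) were called and Fxyd1 (-0.57) was not. For Kcnj11, with its single-exon transcript, partial reads count as complete here. With the same-strand locus beyond its 3′ end, also added later, Scn4a turned to -0.18. Mean levels depended on the classes counted: known models alone gave 11.7 CPM for Clcn1, 0.942 for Scn4a and 253 for Kcnj11, and leaving out incomplete splice match and Genomic models gave 13.7 CPM for Clcn1 and 7.90 for Scn4a. Called transcript shares numbered 832 with at least 50 reads and 54 without incomplete splice match and Genomic models, where the Atp1b2-201 difference turned to -1.06 points and the Fxyd1-213 difference (-10.3 points) was called. Calls for the incomplete splice match share numbered 233 with at least 50 reads. With Genomic models added, the differences of Scn4a (-14.4 points) and Clcn1 (-23.4 points) reversed, and neither was called either way. That of Atp1b2 went from -3.83 points, not called, to -14.8 points, called (adjusted p = 2.00e-04, Fisher's exact test). With known models only, 8 first exons were called. Fewer genes or reads are tested under these minimums and classes; beyond that, the cause was not tested. Scn4a could not be tested from known models only, and Atp1b1, with 3 reads in replicate 1, in no share. No paired analysis was possible because the 2 libraries form 1 group. With 1 sample left there is no spread, so leaving out a library gives the level in the other. Replicate 1, the shallower library, limits what could be detected, most of all for Clcn1, Scn4a and Atp1b1.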
